A study of Mus musculus with 12 samples.

Results

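The genes of the mitochondrial genome were taken as every row of the deposited tables whose symbol starts with mt-, which gave 37 of 53801 rows. They are 13 protein-coding genes, 2 rRNA genes and 22 tRNA genes, 28 on the plus strand and 9 on the minus strand of chrM in the GENCODE M21 annotation of mm10. The rule reads symbols and no measured value, but it was set with earlier results of these data known. RNA sequencing was done on bone marrow of C57BL/6N mice in 4 groups of 3 libraries each. MI-E animals had a myocardial infarction by ligation of the left anterior descending artery (LAD) and were given EMPA, MI animals had the infarction alone, Sham-E animals had the sham operation with EMPA, and Sham animals the sham operation alone. In both E groups EMPA is named by the labels without dose or duration, and the time from surgery to marrow collection is not given in the sources used here. Whether the 3 libraries of a group are 3 different mice is not stated by the labels, so p-values measure the spread between these samples, which may be technical. Whole marrow was sampled, so fewer cells of a type and less RNA per cell cannot be told apart.

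Mitochondrial DNA is copied into long transcripts from both strands, and these are cut into mature RNAs, largely at the tRNAs that lie between the other genes. The 13 proteins are subunits of complexes I, III and IV and of the ATP synthase, where they sit beside subunits made from nuclear genes, whereas the 2 rRNAs form the core of the mitochondrial ribosome and the 22 tRNAs decode its messages. Transcription, RNA processing and translation of this genome depend on nuclear proteins. In marrow, maturing red cells carry many mitochondria and neutrophils few.

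Libraries held 21175087 to 24606783 counts, and libraries are named by their group and the number in their column name. Marker genes of marrow cells were abundant, with summed levels of 20260 to 35650 CPM (counts scaled by library size) for 5 immature neutrophil genes and 12450 to 44500 CPM for 7 erythroid genes in MI, against 17820 to 20940 CPM and 20630 to 27480 CPM in Sham. The mean insert length recovered from counts and TPM was 281.53 ± 1.36 bp in MI-E, 264.27 ± 1.03 bp in MI, 277.17 ± 5.08 bp in Sham-E and 286.2 ± 1.65 bp in Sham (SD, n = 3 each). Inserts of the MI libraries, at 263.4 to 265.4 bp, were the shortest of all (271.3 to 287.3 bp in the other groups), and every Sham-E library (271.3 to 280.3 bp) was shorter than every Sham library (284.3 to 287.3 bp). Insert length and group therefore cannot be told apart in MI against Sham, MI-E against MI and Sham-E against Sham. By these markers 1 library stood apart: Sham-E 1 had the lowest early B-lineage sum, 35 CPM, against 119.8 to 637.6 CPM in the other 11 libraries, the lowest erythroid sum, 6545 CPM against 12450 to 44500 CPM, and the highest sum of neutrophil precursor genes, 8767 CPM against 2487 to 4223 CPM. Counts of called genes are therefore also given without it. How RNA was selected for the libraries, and whether they keep strand, is not given in the sources used here.

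The genes that carried the results, and those for which no counts were listed, differ in sequence context. mt-Nd6 (ENSMUSG00000064368, chrM:13552-14070, minus strand, 519 bases) encodes a membrane subunit of complex I and is the 1 protein-coding gene on the minus strand. Its sense strand held 28.1% G and 6.0% C, whereas those of the other 12 protein-coding genes held 5.9% to 16.1% G and at least 22.1% C. mt-Nd1 (ENSMUSG00000064341, chrM:2751-3707, plus strand, 957 bases) also encodes a membrane subunit of complex I. The first 120 bases of these 2 genes are given 5′ to 3′ on their own strands (from GENCODE M21 transcripts, mm10) with the first codon in capitals, at chrM:13951-14070 and chrM:2751-2870, because they are the 2 genes past the test threshold below.
mt-Nd6 start: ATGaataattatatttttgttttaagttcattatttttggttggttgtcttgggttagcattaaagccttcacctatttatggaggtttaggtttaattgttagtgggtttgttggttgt
mt-Nd1 start: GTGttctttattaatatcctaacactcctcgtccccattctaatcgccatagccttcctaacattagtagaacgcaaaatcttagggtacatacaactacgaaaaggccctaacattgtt

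Each of these messages directly follows a tRNA gene with no base between them, the usual arrangement of this genome. mt-Te, the tRNA for glutamate (chrM:14071-14139, minus strand), precedes mt-Nd6, and mt-Tl1, a tRNA for leucine (chrM:2676-2750, plus strand), precedes mt-Nd1. They are shown whole to set their length, 69 and 75 bases, against the messages, since no tRNA gene had a count.
mt-Te: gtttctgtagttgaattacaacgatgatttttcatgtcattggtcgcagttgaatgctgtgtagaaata
mt-Tl1: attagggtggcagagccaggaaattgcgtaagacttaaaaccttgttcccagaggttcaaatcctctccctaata

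The last 14 bases of mt-Nd6 overlap the last 14 bases of mt-Nd5 on the other strand (chrM:13552-13565). Both ends are given on their own strand with the overlap in capitals, at chrM:13532-13565 for mt-Nd5 (plus) and chrM:13552-13585 for mt-Nd6 (minus).
mt-Nd5 end: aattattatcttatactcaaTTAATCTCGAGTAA
mt-Nd6 end: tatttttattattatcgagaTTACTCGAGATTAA
Because the long plus-strand transcript also runs across mt-Nd6, and strand is not given in the sources used here, RNA of mt-Nd6 and RNA from the opposite strand at that site cannot be told apart in the counts.

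Counts were listed for 10 of the 37 genes. All 22 tRNA genes and 5 protein-coding genes (mt-Co2, mt-Co3, mt-Atp6, mt-Atp8 and mt-Nd4l) stood at 0 in all 12 libraries, where a count of 0 allows at most 0.122 to 0.142 CPM per library for counting error alone. mt-Nd3 had 3, 5 and 5 counts in MI-E, 11, 6 and 6 counts in MI, 2, 9 and 8 counts in Sham-E and 4, 5 and 2 counts in Sham, 66 in all, and did not pass the filter on low counts. The remaining 9 genes were tested: the rRNAs mt-Rnr1 and mt-Rnr2 and 7 messages, for complex I (mt-Nd1, mt-Nd2, mt-Nd4, mt-Nd5 and mt-Nd6), complex III (mt-Cytb) and complex IV (mt-Co1). No ATP synthase message had a count, so sums over these genes do not give the output of the whole mitochondrial genome.

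**Figure D1:**
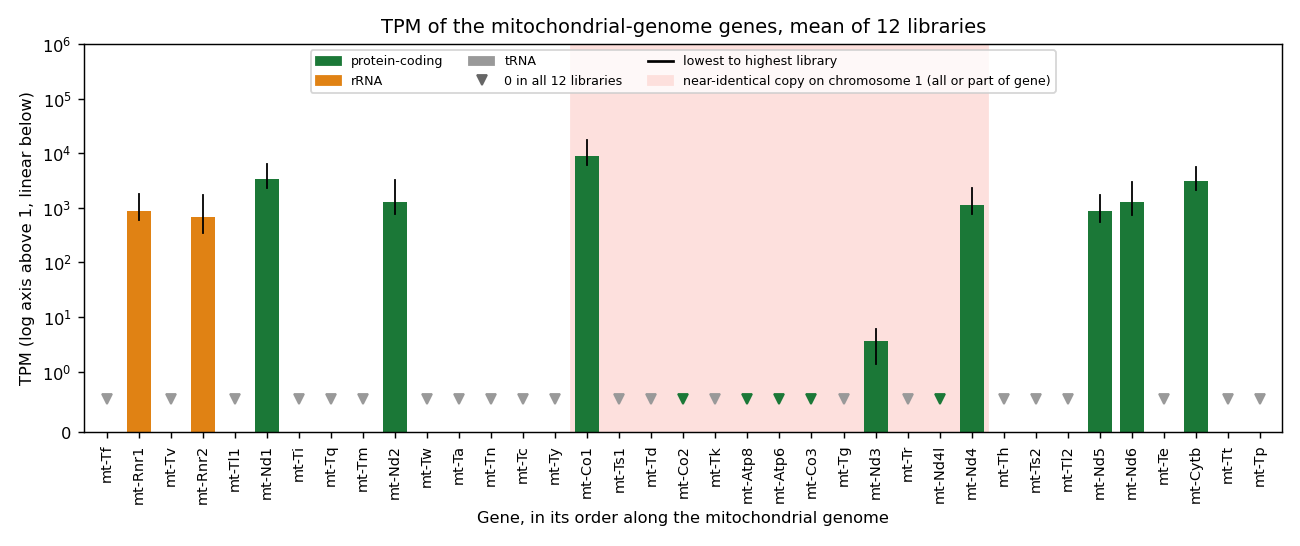
TPM of the 37 mitochondrial-genome genes in their order along the genome, as the mean of 12 libraries (bars) with the lowest and highest library (lines); the vertical axis is logarithmic above 1 and linear below. Triangles mark the 27 genes at 0 in all 12 libraries, and shading marks the genes that lie wholly or partly within the stretch copied on chromosome 1, where mt-Co1 and mt-Nd4 are the partly covered ones and mt-Nd3 has 3.58 TPM.

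The 5 protein-coding genes at 0 lie in 1 stretch of the genome that also holds mt-Nd3. Aligned to all other GENCODE M21 transcripts, the mitochondrial genes gave 8 matches of at least 99% identity to 7 unprocessed pseudogenes in a row on the minus strand of chromosome 1, at chr1:24611535-24616197. The matches correspond, in the same order, to chrM:6390-11042, a stretch of 4653 bases of mitochondrial DNA. The 4663 bases on chromosome 1 run over the pseudogenes as annotated. They include bases of Gm29216 beyond its match to mt-Co1, so the 2 lengths are not those of the same matched bases. mt-Co2 matched Gm28661 over 681 bases, mt-Atp6 matched Gm10925 over 678 bases, mt-Co3 matched Gm28437 over 783 bases and mt-Nd4l matched Gm10222 over 294 bases, each at 100% identity. mt-Atp8 had a match over 43 of its 204 bases alone (21.1%), in the part shared with Gm10925. Genes were placed within the stretch by position between its first and last match. The 6 protein-coding genes wholly within it, mt-Nd3 among them, had at most 11 counts in any library. The 5 wholly outside it (mt-Nd1, mt-Nd2, mt-Nd5, mt-Nd6 and mt-Cytb) had at least 3638 counts in every library. mt-Co1 and mt-Nd4 extend beyond the stretch, with 483 of 1545 and 876 of 1378 bases inside it, and had 155175 to 390525 and 17150 to 44208 counts. The copies themselves had 0 to 2 counts per library, 4 over all 12.

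mt-Nd3, the gene within the stretch that kept some counts, differs from its copy Gm28438 at 1 of 345 aligned bases, T3C, counted from 1 at the 5′ end of mt-Nd3 with the mitochondrial base first. Both sequences are given 5′ to 3′ with that base in capitals, from chrM:9459-9491 (plus) and chr1:24613087-24613119 (minus).
mt-Nd3: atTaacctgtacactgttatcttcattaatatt
Gm28438: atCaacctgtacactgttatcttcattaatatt
How reads with several equally good positions were counted is not given in the sources used here, and the part of the copies in the zeros was not tested. Whether reads within the copied bases of mt-Co1 and mt-Nd4 were counted was not tested either, which limits their levels per length.

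tRNA genes were 59 to 75 bases long, and 0 of 991 nuclear genes with 1 annotated transcript of at most 75 bases had a count in any library. The zeros of the tRNA genes were thus shared with other short genes in these tables. What part length had in them was not tested.

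Among the genes with counts, levels per length over all 12 libraries were highest for mt-Co1, the catalytic subunit of complex IV, at a mean of 8759 TPM (range 5970 to 17509 TPM). mt-Nd1 averaged 3434 TPM and mt-Cytb, the cytochrome b of complex III, 3085 TPM, but their order differed by group, with mt-Nd1 above mt-Cytb in all 6 MI-E and MI libraries and below it in all 6 Sham-E and Sham libraries. The other complex I messages averaged 1294 TPM for mt-Nd2, 1259 TPM for mt-Nd6, 1119 TPM for mt-Nd4 and 854.5 TPM for mt-Nd5. The rRNAs averaged 876 TPM for mt-Rnr1, the small-subunit rRNA, and 689 TPM for mt-Rnr2, the large-subunit rRNA, and stood below most of the messages. mt-Co1 took 52.25% ± 1.71 of the counts of all 37 genes in MI-E, 51.4% ± 0.897 in MI, 52.34% ± 2.92 in Sham-E and 51.29% ± 1.70 in Sham (SD, n = 3 each).

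The share of all counts that fell on the 37 genes was 2.41%, 3.58% and 2.23% in MI 1 to MI 3, against 1.67%, 1.49% and 1.49% in Sham 1, 3 and 4. All MI libraries lay above all others. In MI-E 2 to MI-E 4 it was 1.33%, 1.86% and 1.41%, and in Sham-E 1 to Sham-E 3 it was 1.60%, 1.37% and 1.87%, with ranges that overlap that of Sham. Group means were 1.53% ± 0.290 in MI-E, 2.74% ± 0.733 in MI, 1.61% ± 0.251 in Sham-E and 1.55% ± 0.102 in Sham (SD, n = 3 each). Protein-coding genes made up nearly the whole share, at 1.44% ± 0.262, 2.57% ± 0.640, 1.49% ± 0.204 and 1.43% ± 0.099 in the same order. The rRNA genes took 0.0966% ± 0.0277 in MI-E, 0.177% ± 0.0932 in MI, 0.126% ± 0.0551 in Sham-E and 0.116% ± 0.0071 in Sham. Here MI 2 stood apart with 0.284%, whereas MI 1 and MI 3 had 0.129% and 0.117%, so the rRNA share of the MI libraries reached into that of the Sham libraries (0.108% to 0.121%). tRNA genes took 0% in every library.

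In MI against Sham mt-Nd6 and mt-Nd1, which both encode complex I subunits, rose, and the other 7 tested genes did not pass the test. mt-Nd6 had 432, 651 and 485 CPM in MI 1 to MI 3, against 202, 169 and 144 CPM in Sham 1, 3 and 4. mt-Nd1 had 3362, 3840 and 2917 CPM in MI, against 1577, 1355 and 1254 CPM in Sham. For both genes the lowest MI library was well above the highest Sham library. On the log2 scale mt-Nd6 rose by 1.61 ± 0.21 (SE; 95% interval 1.15 to 2.06), with an edgeR quasi-likelihood adjusted p of 0.016, and mt-Nd1 by 1.27 ± 0.20 (0.85 to 1.70), with an edgeR adjusted p of 0.0309. These were 2 of 9 tested genes, where 0.417% of all 15119 tested genes passed.

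**Figure D2:**
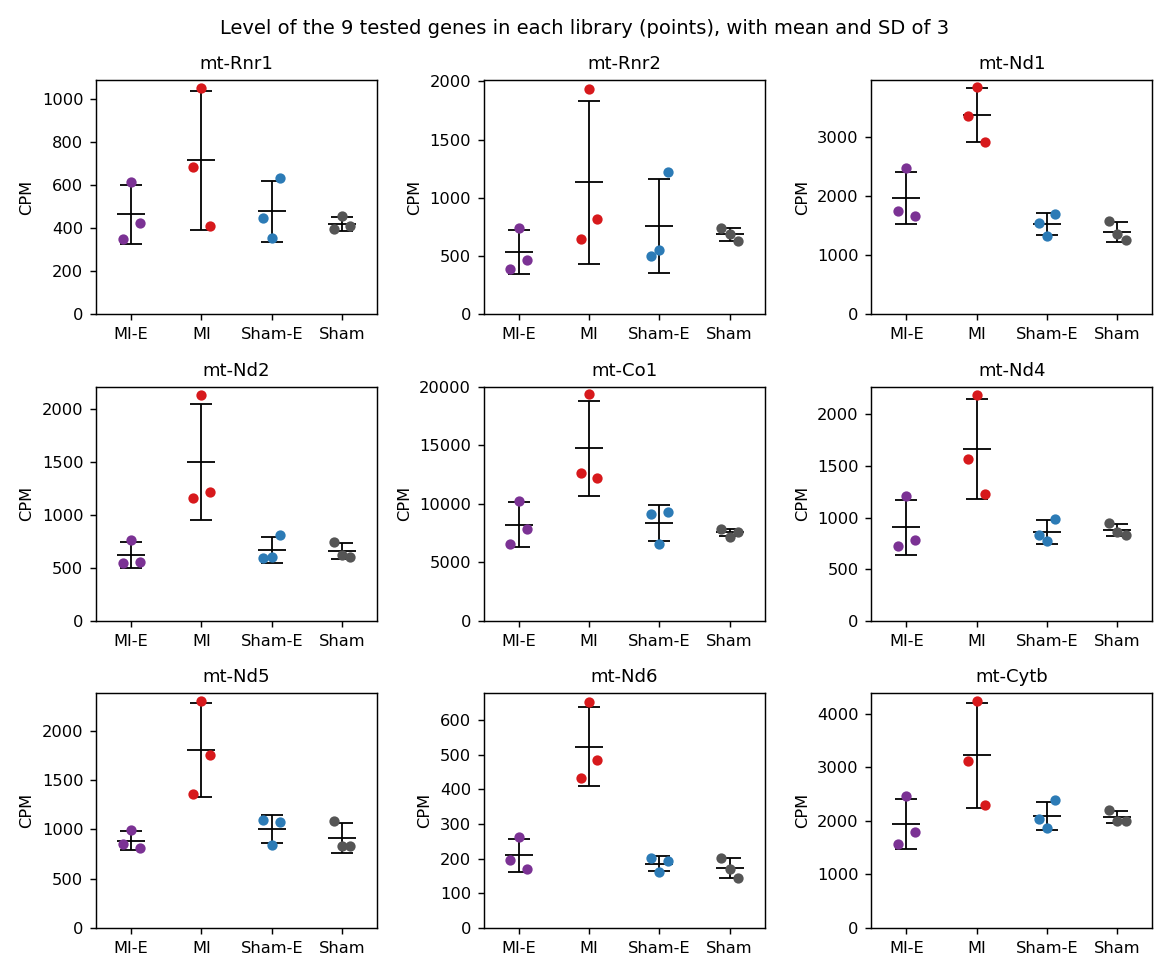
CPM of the 9 tested mitochondrial-genome genes in each library (points), with mean and SD of 3 libraries (bars), in MI-E, MI, Sham-E and Sham; each vertical axis starts at 0. MI lies above Sham without overlap for the 7 messages, MI 2 is the highest point in all 9 panels, and mt-Rnr1 and mt-Rnr2 overlap between groups.

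The other 7 genes were also higher in the mean of MI but did not pass. mt-Co1 had 12610, 19360 and 12210 CPM in MI, against 7859, 7205 and 7632 CPM in Sham, a log2 difference of 0.96 ± 0.24 (edgeR adjusted p 0.0761). mt-Nd5, a membrane subunit of complex I, had 1361, 2303 and 1751 CPM in MI, against 1083, 826 and 828 CPM in Sham, a difference of 0.98 ± 0.21 (edgeR adjusted p 0.0554). mt-Cytb had 3127, 4245 and 2301 CPM in MI, against 2196, 2007 and 2006 CPM in Sham, the smallest difference of the messages at 0.64 ± 0.23 (edgeR adjusted p 0.163). MI 3 was only just above Sham 1 for mt-Cytb. mt-Nd2 and mt-Nd4, also complex I messages, differed by 1.19 and 0.92 on the log2 scale (edgeR adjusted p 0.054 and 0.0812). All 7 messages were without overlap between MI and Sham libraries, 7 of 9 tested genes against a background of 13.4% of all tested genes that were higher in MI without overlap. At an unadjusted p under 0.05 there were 8 of 9 genes, against 19.5% of all genes. The median log2 difference of the 9 genes was 0.961, and that of all tested genes 0.025.

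The 2 rRNAs varied more. mt-Rnr1 had 684, 1055 and 409 CPM in MI, against 395, 458 and 410 CPM in Sham, and mt-Rnr2 had 646, 1935 and 817 CPM in MI, against 739, 693 and 630 CPM in Sham. MI 2 was high for both, while MI 3 for mt-Rnr1 and MI 1 for mt-Rnr2 lay within the Sham range. The log2 differences were 0.77 ± 0.32 for mt-Rnr1 and 0.72 ± 0.44 for mt-Rnr2 (edgeR adjusted p 0.215 and 0.383). Without MI 2 they were 0.38 and 0.09 (edgeR adjusted p 0.471 and 0.907).

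The count of called genes in MI against Sham depended on single libraries. It was 0 without Sham 1, Sham 3 or Sham 4, 1 without MI-E 2 or MI-E 4, 4 without MI 1 and 6 without Sham-E 1, against 2 in all libraries. Calls over all 15119 tested genes moved as well. They numbered 1, 2 and 1 without Sham 1, 3 and 4, against 63 in all libraries. Without MI-E 2 and MI-E 4 they numbered 6 and 9. The share of all tested genes was 0.774% without MI 1 and 8.14% without Sham-E 1. mt-Nd6 kept a log2 difference of 1.42 to 1.73 over these refits, with edgeR adjusted p of 0.0685, 0.106 and 0.13 without Sham 1, 3 and 4 and below the threshold otherwise. mt-Nd1 stayed between 1.17 and 1.37, with edgeR adjusted p of 0.122, 0.146 and 0.163 without Sham 1, 3 and 4, and 0.0599 and 0.0611 without MI-E 2 and MI-E 4. DESeq2 called 6 of the 9 genes, all but mt-Cytb and the rRNAs, where it called 6.73% of all genes it tested, and limma on log2(TPM + 1) called mt-Nd1 and mt-Nd6, against 1.87% of all genes.

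**Figure D3:**
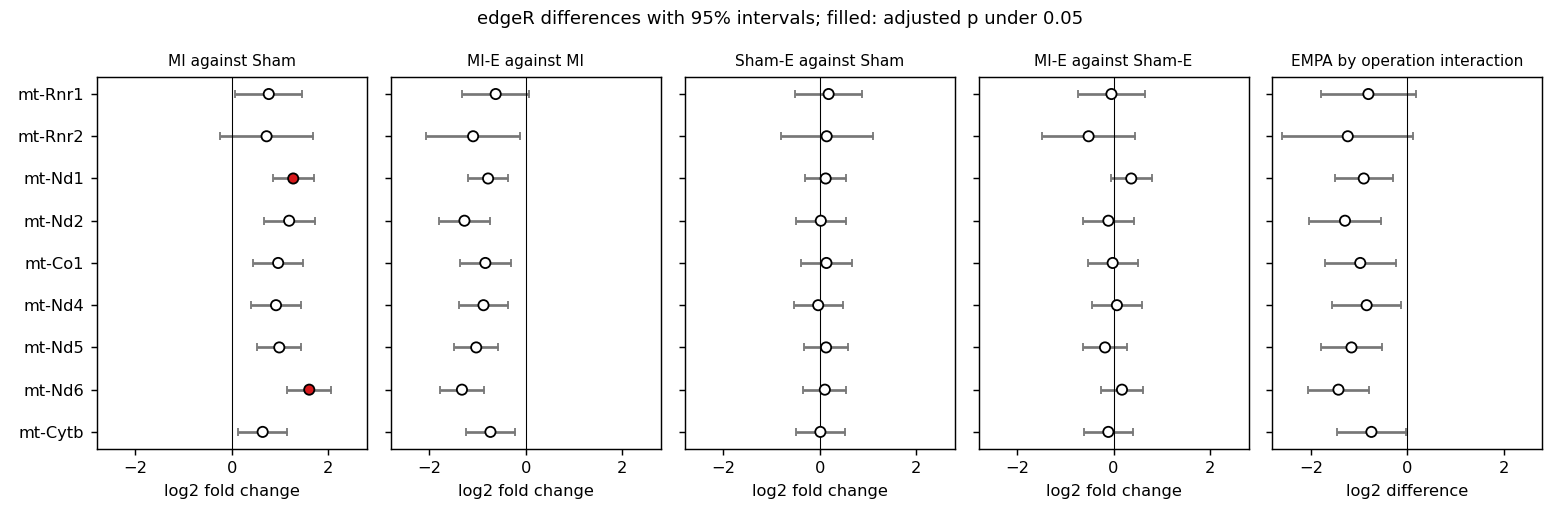
Log2 differences of the 9 tested genes (points) with 95% intervals (bars) from edgeR in the 5 directed comparisons, with the interaction last; filled points have an adjusted p under 0.05. mt-Nd6 at 1.61 and mt-Nd1 at 1.27 in MI against Sham are the 2 filled points, the intervals of MI-E against MI lie below 0 except that of mt-Rnr1, and those of Sham-E against Sham and MI-E against Sham-E all include 0.

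With EMPA after infarction, all 9 tested genes had lower means than after infarction alone, and none passed the test. mt-Nd6 had 196, 262 and 169 CPM in MI-E 2 to MI-E 4, against 432, 651 and 485 CPM in MI, a log2 difference of -1.32 ± 0.21 (95% interval -1.77 to -0.87; edgeR adjusted p 0.0847). mt-Nd5 had 855, 994 and 808 CPM in MI-E, against 1361, 2303 and 1751 CPM in MI, a difference of -1.03 ± 0.21 (edgeR adjusted p 0.0847). mt-Nd1 had 1747, 2471 and 1672 CPM in MI-E, against 3362, 3840 and 2917 CPM in MI, a difference of -0.78 ± 0.20 (edgeR adjusted p 0.115). The MI-E and MI libraries of these 3 genes did not overlap. mt-Co1 had 6563, 10280 and 7872 CPM in MI-E, against 12610, 19360 and 12210 CPM in MI, a difference of -0.84 ± 0.24 (edgeR adjusted p 0.141). mt-Cytb had 1562, 2467 and 1796 CPM in MI-E, against 3127, 4245 and 2301 CPM in MI, a difference of -0.73 ± 0.23 (edgeR adjusted p 0.162). Its highest MI-E library, MI-E 3, was above MI 3.

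MI-E 3 was the highest MI-E library for all 9 genes in CPM. mt-Rnr1 had 351, 616 and 426 CPM in MI-E, against 684, 1055 and 409 CPM in MI, and mt-Rnr2 had 385, 744 and 465 CPM in MI-E, against 646, 1935 and 817 CPM in MI, with overlap in both. Their log2 differences were -0.62 ± 0.32 and -1.09 ± 0.44 (edgeR adjusted p 0.335 and 0.242). Without MI 2 they were -0.23 and -0.46 (edgeR adjusted p 0.749 and 0.589). mt-Nd2 and mt-Nd4 differed by -1.27 and -0.88 (edgeR adjusted p 0.0847 and 0.128).

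In all, 0 of 9 genes were called in MI-E against MI by edgeR, where 0.00661% of all tested genes were, and 8 of 9 had an unadjusted p under 0.05, against 17.4% of all genes. The libraries of 6 of the 9 were lower in MI-E without overlap, against 10.1% of all genes. The median log2 difference was -0.876 for the 9 genes and -0.022 for all. DESeq2 called 7 of the 9, all messages (background 4.23%), and limma on log2(TPM + 1) called mt-Nd2 and mt-Nd6 (background 0.331%). With edgeR, 3 genes were called without MI 1 (mt-Nd2, mt-Nd5 and mt-Nd6; background 6.59%) and 2 without Sham-E 1 (mt-Nd2 and mt-Nd6; background 0.370%). MI against Sham and MI-E against MI share the MI libraries, so a high MI level moves both.

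EMPA after the sham operation went with no call. mt-Nd6 had 202, 161 and 192 CPM in Sham-E 1 to Sham-E 3, against 202, 169 and 144 CPM in Sham, and mt-Nd1 had 1540, 1329 and 1698 CPM in Sham-E, against 1577, 1355 and 1254 CPM in Sham. The libraries of the groups overlapped for all 9 genes, where 8.98% of all tested genes were without overlap in either direction. Log2 differences ran from -0.03 (mt-Nd4) to 0.19 (mt-Rnr1), with an edgeR adjusted p of 1 for each. The 95% interval was -0.33 to 0.55 for mt-Nd6 and -0.30 to 0.55 for mt-Nd1. mt-Co1 differed by 0.14 ± 0.24, mt-Nd5 by 0.13 ± 0.21, mt-Cytb by 0.02 ± 0.23 and mt-Rnr2 by 0.15 ± 0.44. Of the 9 genes, 0 passed the edgeR threshold (background 0%), 0 had an unadjusted p under 0.05 (background 1.90%), and DESeq2 (background 0.0132%) and limma (background 0%) also called 0. Without Sham-E 1, edgeR called 0 of the 9 (background 0%).

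MI-E and Sham-E libraries overlapped for every tested gene. mt-Nd6 had 196, 262 and 169 CPM in MI-E, against 202, 161 and 192 CPM in Sham-E, a log2 difference of 0.18 ± 0.20 (95% interval -0.27 to 0.62; edgeR adjusted p 0.726). mt-Nd1 had 1747, 2471 and 1672 CPM in MI-E, against 1540, 1329 and 1698 CPM in Sham-E, the highest difference of the 9 at 0.37 ± 0.19 (-0.05 to 0.79; edgeR adjusted p 0.425). mt-Rnr2 had the lowest, -0.52 ± 0.44 (edgeR adjusted p 0.617), and its highest Sham-E library, Sham-E 3, had 1224 CPM against 503 and 555 CPM in the other Sham-E libraries. mt-Co1 differed by -0.02 ± 0.24, mt-Cytb by -0.11 ± 0.23, mt-Nd5 by -0.18 ± 0.21 and mt-Rnr1 by -0.04 ± 0.32. Beside these 9 genes with overlap, 23.9% of all tested genes were without overlap in either direction. By edgeR 0 of 9 were called (background 0%) and 0 had an unadjusted p under 0.05 (background 13.4%), and DESeq2 (background 1.18%) and limma (background 0%) called 0. Without Sham-E 1, edgeR called 0 of the 9 (background 0.761%).

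Whether the difference that went with EMPA was the same after both operations was tested by the interaction, in which the log2 difference of Sham-E from Sham is subtracted from that of MI-E from MI. It was negative for all 9 genes, from -1.43 ± 0.29 for mt-Nd6 (95% interval -2.06 to -0.80; edgeR adjusted p 0.238) to -0.75 ± 0.33 for mt-Cytb (edgeR adjusted p 0.357). mt-Nd1 had -0.91 ± 0.27, mt-Nd5 -1.16 ± 0.29, mt-Co1 -0.98 ± 0.34, mt-Rnr1 -0.81 ± 0.45 and mt-Rnr2 -1.24 ± 0.62. Of the 9, 0 were called by edgeR (background 0.00661%), 7 had an unadjusted p under 0.05 (background 13.5%), DESeq2 called 3 (mt-Nd2, mt-Nd5 and mt-Nd6; background 1.03%) and limma 0 (background 0.0463%). Without MI 1, edgeR called mt-Nd6 (background 1.01%), and without Sham-E 1 it called 0 of the 9 (background 0.00661%). In the test of any difference among the 4 groups, mt-Nd6 was called (edgeR adjusted p 0.0364; background 0.0265%) and mt-Nd1 was not (edgeR adjusted p 0.0656), with 7 of 9 at an unadjusted p under 0.05 (background 18.0%). That count of 1 was 0 without Sham 1, 3 or 4, Sham-E 2, Sham-E 3, MI 3 or MI-E 2. In those refits 0 to 2 of all tested genes were called, against 4 in all libraries. The count was 2 without MI 2 (160 of all tested genes), 3 without MI 1 (background 0.853%) and 4 without Sham-E 1 (background 5.89%).

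Ratios between mitochondrial RNAs of 1 library do not depend on how the libraries were scaled. TPM also depend on insert length, which differed by group, and its part in these ratios was not tested. mt-Nd6 per 100 TPM of the other 6 tested messages was 7.11, 6.30 and 5.59 in MI-E 2 to MI-E 4, 7.70, 8.03 and 9.40 in MI 1 to MI 3, 6.00, 5.91 and 5.09 in Sham-E 1 to Sham-E 3 and 6.31, 5.93 and 4.96 in Sham 1, 3 and 4. Every MI library was above every other library. Means were 6.33 ± 0.763 in MI-E, 8.38 ± 0.900 in MI, 5.67 ± 0.503 in Sham-E and 5.73 ± 0.696 in Sham (SD, n = 3 each). In counts in place of TPM they were 1.442 ± 0.187 in MI-E, 2.006 ± 0.207 in MI, 1.285 ± 0.0927 in Sham-E and 1.27 ± 0.156 in Sham. Against mt-Nd5, its neighbour on the other strand, mt-Nd6 stood in TPM at 1.51 ± 0.172 in MI-E (1.361 to 1.699) and 1.78 ± 0.139 in MI (1.686 to 1.943). It stood at 1.18 ± 0.0610 in Sham-E (1.115 to 1.235) and 1.24 ± 0.106 in Sham (1.139 to 1.35). In this ratio MI-E and MI overlapped, and every library of infarcted mice was above every library of sham-operated mice.

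**Figure D4:**
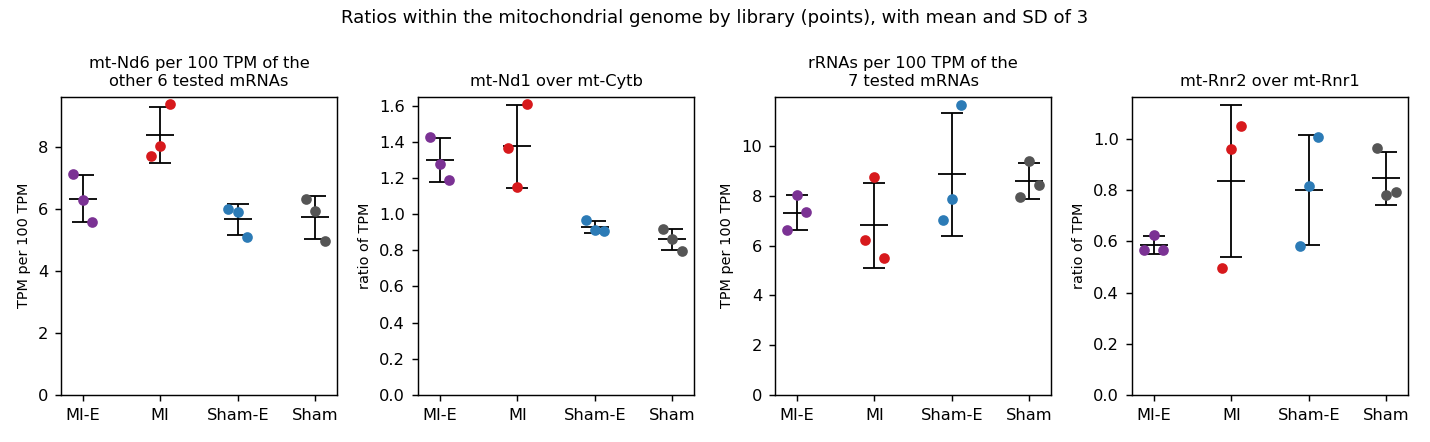
Ratios of TPM between mitochondrial RNAs in each library (points), with mean and SD of 3 libraries (bars), in MI-E, MI, Sham-E and Sham; every vertical axis starts at 0. mt-Nd6 relative to the other 6 messages is highest in the MI libraries (7.70 to 9.40), and mt-Nd1 over mt-Cytb is at least 1.15 in all MI-E and MI libraries and at most 0.969 in all Sham-E and Sham libraries.

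Another ratio separated the operations. mt-Nd1 over mt-Cytb was 1.30 ± 0.121 in MI-E (1.19 to 1.43), 1.37 ± 0.231 in MI (1.15 to 1.61), 0.928 ± 0.0352 in Sham-E (0.905 to 0.969) and 0.860 ± 0.0601 in Sham (0.799 to 0.919). All 6 libraries of infarcted mice were above all 6 of sham-operated mice, with or without EMPA. This pair was chosen after its values were seen and has no test. The rRNAs per 100 TPM of the 7 messages were 7.34 ± 0.708 in MI-E, 6.83 ± 1.71 in MI, 8.87 ± 2.46 in Sham-E and 8.61 ± 0.738 in Sham, with overlap between groups. mt-Rnr2 over mt-Rnr1 was 0.586 ± 0.0349 in MI-E, 0.836 ± 0.298 in MI, 0.801 ± 0.213 in Sham-E and 0.848 ± 0.104 in Sham, lowest in MI-E in the mean, though the MI libraries ranged from 0.495 to 1.05.

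Nuclear genes that copy, process and translate mitochondrial DNA did not show differences of this size as a group. Of 92 listed genes 90 were tested, and edgeR called 0 in MI against Sham (background 0.417%), with 43 higher and 47 lower in MI, a median log2 difference of -0.007 and 12 at an unadjusted p under 0.05 (background 19.5%). Trnt1, which adds the CCA end to tRNAs, averaged 49.4 ± 8.20 CPM in MI and 36.5 ± 0.927 CPM in Sham (edgeR adjusted p 0.106). Polg2, the accessory subunit of the mitochondrial DNA polymerase, averaged 15.8 ± 3.4 CPM in MI and 10.7 ± 1.36 CPM in Sham (edgeR adjusted p 0.131). Tfb1m, an rRNA methyltransferase, averaged 6.04 ± 1.35 CPM in MI and 8.88 ± 0.477 CPM in Sham (edgeR adjusted p 0.181). DESeq2 called 2 of the 90, Mtrf1 and Trnt1, both higher in MI (background 6.73%), and limma 0 (background 1.87%).

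In MI-E against MI, 0 of these 90 genes were called by edgeR (background 0.00661%), with 54 higher and 36 lower in MI-E, a median of 0.108 and 13 at an unadjusted p under 0.05 (background 17.4%). The transcription and packaging list was the one of the 7 with the lowest median, -0.175, with 3 of 10 genes higher and 7 lower. It holds Tfb2m, the transcription initiation factor, at 13.2 ± 1.15 CPM in MI-E, against 18.4 ± 3.12 CPM in MI (edgeR adjusted p 0.172), and Mterf3, a member of the transcription termination factor family, at 18.2 ± 1.86 CPM in MI-E, against 25.3 ± 3.78 CPM in MI (edgeR adjusted p 0.147). Of 17 mitochondrial aminoacyl-tRNA synthetases, which charge the mitochondrial tRNAs, 16 were higher in MI-E, with a median of 0.192. Among them Lars2 averaged 757.7 ± 506.0 CPM in MI-E, against 276.1 ± 5.53 CPM in MI (log2 difference 1.46, edgeR adjusted p 0.146). Aars2 averaged 13.9 ± 1.63 CPM in MI-E, against 9.79 ± 2.14 CPM in MI (edgeR adjusted p 0.208). On the translation factors and assembly list, Sco2 averaged 3.89 ± 1.19 CPM in MI-E, against 1.11 ± 0.118 CPM in MI. Its log2 difference of 1.81 (edgeR adjusted p 0.108) was the largest of the 90. DESeq2 called Lars2 and Sco2, both higher in MI-E (background 4.23%), and limma called 0 (background 0.331%).

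The nuclear subunits of the respiratory chain and ATP synthase had smaller differences in the median than the mitochondrial ones. All 41 listed genes, 4 of them for complex II, were tested, and edgeR called 0 in MI against Sham (background 0.417%). Of the 41, 28 were higher and 13 lower in MI, where 52.4% of all tested genes were higher. Their median log2 difference was 0.107. At an unadjusted p under 0.05 there were 13 (background 19.5%). Cox8a, a complex IV subunit, averaged 166.8 ± 12.4 CPM in MI and 111.0 ± 9.12 CPM in Sham, a log2 difference of 0.59 (edgeR adjusted p 0.0519). Atp5h, an ATP synthase subunit, averaged 188.5 ± 10.7 CPM in MI and 131.1 ± 6.14 CPM in Sham, a difference of 0.52 (edgeR adjusted p 0.0688). Atp5e went the other way, with 70.4 ± 19.0 CPM in MI and 99.5 ± 7.98 CPM in Sham, a difference of -0.50 (edgeR adjusted p 0.157). DESeq2 called 5, all higher in MI (Atp5h, Cox5b, Cox8a, Sdhb and Uqcrc2; background 6.73%), and limma called Atp5e, lower in MI (background 1.87%). Complex II, which has no mitochondrially encoded subunit, had a median of 0.171 over 4 genes.

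**Figure D5:**
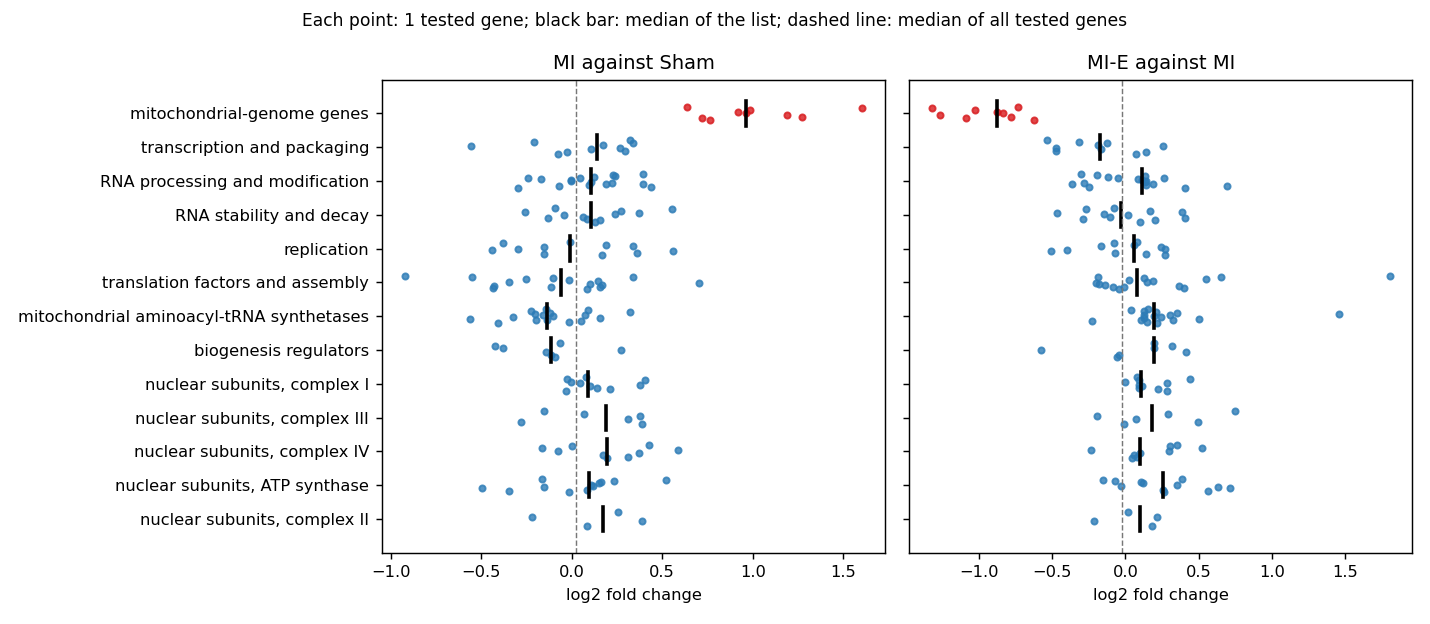
Log2 differences (edgeR) of the tested mitochondrial-genome genes and of nuclear genes by list, for MI against Sham and MI-E against MI; each point is 1 gene, the black bar is the list's median and the dashed line the median of all tested genes. The mitochondrial-genome genes have medians of 0.961 and -0.876, while the lists of nuclear genes have medians between -0.175 and 0.259.

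In MI-E against MI edgeR called 0 of the 41 nuclear subunits (background 0.00661%). The difference was positive for 33 and negative for 8, where 47.6% of all tested genes had a positive one. The 41 had a median of 0.118, with 12 at an unadjusted p under 0.05 (background 17.4%). Uqcrq, a complex III subunit, averaged 113.6 ± 11.6 CPM in MI-E, against 67.6 ± 18.1 CPM in MI (log2 difference 0.75, edgeR adjusted p 0.112). Atp5e averaged 115.4 ± 18.5 CPM in MI-E, against 70.4 ± 19.0 CPM in MI (0.71, edgeR adjusted p 0.116). DESeq2 called 5, all higher in MI-E (Atp5e, Atp5g3, Cyc1, Ndufv1 and Uqcrq; background 4.23%), and limma 0 (background 0.331%). In MI-E against Sham-E 39 of the 41 were higher and 2 lower, where 50.4% of all tested genes were higher. The 41 had a median of 0.271, while the 9 mitochondrial genes had a median of -0.043. Of the 41, 18 had an unadjusted p under 0.05 (background 13.4%). edgeR called 0 of these 41 there (background 0%), DESeq2 called 3 (background 1.18%) and limma 0 (background 0%).

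Marker sums of some other cells also differed between these groups. Among single genes, 2030 of 15119 tested were higher and 2093 lower in MI than in Sham without overlap of libraries. Of 13 marker lists, 0 were higher and 3 lower in MI than in Sham without overlap of libraries: early B-lineage cells at 119.8 to 247.9 CPM in MI against 404 to 637.6 CPM in Sham, mature B cells at 1159 to 1513 CPM against 1980 to 2802 CPM, and stroma at 97.2 to 161.7 CPM against 179.5 to 319 CPM. In MI-E against MI, 1750 of the 15119 single genes were higher and 1525 lower without overlap. Of the marker lists in that comparison, 4 were higher without overlap and 0 lower. They were adipocytes at 5.92 to 10.2 CPM in MI-E against 1.70 to 4.06 CPM in MI, mature B cells at 1519 to 1816 CPM against 1159 to 1513 CPM, megakaryocytes at 169 to 220.4 CPM against 67.3 to 142.6 CPM, and stroma at 206.4 to 344.6 CPM against 97.2 to 161.7 CPM. Erythroid sums overlapped, and MI 2, which had the highest CPM for all 9 tested mitochondrial genes, had the lowest erythroid sum of the MI libraries, 12450 CPM, against 44500 CPM in MI 3. The 7 muscle genes summed to 1.26 to 2.03 CPM in MI, against 1.08 to 5.03 CPM in Sham, with Mb, Myh4, Myh6 and Myh7 at no more than 12 counts in any library. The part of cell makeup in the mitochondrial results was not tested.

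Among 9671 other genes whose log2 CPM averaged 3 or more, those whose log2 CPM followed the mean of the 7 tested messages most closely over the 12 libraries were Fundc1, Lmo4, Stx7, Cd53 and Smim15, with Pearson correlations of 0.918, 0.914, 0.912, 0.91 and 0.908. The 12 libraries share group, insert length and depth differences, and the correlations are given as a description. Fundc1 averaged 24.7 ± 2.94 CPM in MI-E, 35.7 ± 5.75 CPM in MI, 26.1 ± 2.41 CPM in Sham-E and 25.1 ± 0.140 CPM in Sham. Lmo4 averaged 149.8 ± 15.6 CPM in MI-E, 218.3 ± 13.6 CPM in MI, 149.5 ± 10.9 CPM in Sham-E and 147.2 ± 7.58 CPM in Sham. In both genes MI had the highest mean, as in the mitochondrial messages.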

How the data were processed

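The authors deposited gene counts for 12 libraries, with no scaling, and TPM values, which account for gene length. All cells of the count table were whole numbers, with 0 that were not, although estimated counts had been planned for. Per the submitters' processing notes, CASAVA 1.8, STAR 2.4.0j, RSEM and mm10 were used. Columns outside the series numbered 0. The columns of Sham-E and MI carry the same numbers as sample titles and were tied to samples; for Sham and MI-E the column gave the group only.

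Genes were kept by filterByExpr of edgeR 4.0.16 (R 4.3.3), which left 15119, and scaled by TMM (factors 0.94 to 1.06). The quasi-likelihood F-test used all 12 libraries with a mean per group and robust dispersions, leaving 8 residual degrees of freedom. Adjustment was by Benjamini-Hochberg over all tested genes, with a threshold of 0.05. Intervals are 95%. CPM are counts over the TMM-scaled library size, except that marker sums use total counts. Standard errors are the log2 difference over the square root of F. The 5 directed comparisons share libraries. In simulated counts for MI against Sham over 15119 genes, 29 of 100 genes with a 2-fold change and 72 of 100 with a 4-fold change were recovered, with 4 false calls.

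Copies were found by aligning GENCODE M21 transcripts with BLAST 2.17.0 (identity of at least 90%, with 99% for near-identical). Insert length was fitted from the ratio of counts to TPM against the length of nuclear transcripts of 1000 to 6000 bases with at least 200 counts. Named genes were every mitochondrial gene past the threshold and a set of 8 always read, with up to 2 genes of smallest p per nuclear list. Nearest genes were to follow all 13 protein-coding genes, but 7 had tested counts. Mrpp3 and Prorp, on the processing list, are not symbols in the table. The members and lists were chosen with earlier results of these data known. Alternatives were other scalings and filters, DESeq2 1.42.0, limma 3.58.1 on log2(TPM + 1) or log2(TPM + 0.1), fits to the groups compared, a replicate block and each library left out.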

Additional observations from a re-analysis of the deposited data

How the results depend on the processing

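Against 2 called mitochondrial genes in MI against Sham, 0 in MI-E against MI, 0 in the interaction and 1 among the 4 groups, no filter on low counts gave 4, 3, 0 and 4, DESeq2 gave 6, 7, 3 and 6, limma on log2(TPM + 1) gave 2, 2, 0 and 2, and on log2(TPM + 0.1) 2, 3, 0 and 2. limma with no filter called 0 among the 4 groups, where it called 15 of 24986 genes. Over all tested genes the main fit called 63, 1, 1 and 4. With no filter on low counts it was 156, 33, 1 and 48 of 24969 genes. DESeq2 called 1016, 577, 152 and 1101 of the 13642 to 15107 genes it tested. Of 15119 genes, limma called 282, 50, 7 and 82 on log2(TPM + 1). On log2(TPM + 0.1) it called 269, 67, 14 and 81. Leaving out each library gave 0 to 6, 0 to 3, 0 to 1 and 0 to 4 mitochondrial genes. Over all tested genes it gave 1 to 1231, 1 to 997, 1 to 152 and 0 to 890. The cause was not tested. Directions held in all 198 alternative values of MI against Sham, all 198 of MI-E against MI and all 189 of the interaction. Total-count scaling moved the median of all genes in MI against Sham by -0.128, beside which mt-Nd6 stood at 1.47 and mt-Nd1 at 1.14. On log2(TPM + 1), which accounts for gene length, limma gave 1.32 for mt-Nd6 and 1.08 for mt-Nd1. The part of insert length in these differences was not tested. Fitted to the groups compared, edgeR called 309 genes in MI against Sham, against 63, with mt-Nd1 and mt-Nd6 among them.

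Column numbers are shared by 2 pairs in each comparison, and deviations of same-numbered libraries correlated at -0.40 to 0.28 over 9584 genes. With so few pairs this cannot decide whether the numbers pair the samples, and the labels do not say. With them as a replicate block, 0 mitochondrial genes were called in MI against Sham (mt-Nd6 1.49 and mt-Nd1 1.22, edgeR adjusted p 0.127 each) and 0 among the 4 groups. Over all tested genes that fit called 1 in MI against Sham and 0 among the 4 groups.

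In Sham-E against Sham, small differences changed sign in 23 of 198 alternative values. With the replicate block mt-Rnr2 had -0.054, mt-Nd2 -0.083, mt-Nd6 -0.012 and mt-Cytb -0.022. mt-Nd2 and mt-Cytb had -0.020 and -0.030 with total-count scaling, and -0.014 and -0.018 in each limma fit. Leaving out each library gave -0.074 to 0.358 for mt-Rnr1, -0.38 to 0.37 for mt-Rnr2, -0.13 to 0.11 for mt-Nd2, -0.143 to 0.039 for mt-Nd4, -0.007 to 0.231 for mt-Nd6 and -0.093 to 0.086 for mt-Cytb. In MI-E against Sham-E it was 18 of 198. In each limma fit mt-Nd4 had -0.161 and mt-Nd6 -0.023. Leaving out each library gave -0.30 to 0.20 for mt-Rnr1, -0.278 to 0.041 for mt-Nd2, -0.21 to 0.11 for mt-Co1, -0.19 to 0.20 for mt-Nd4, -0.021 to 0.306 for mt-Nd6 and -0.317 to 0.018 for mt-Cytb. None of these was called in any setting. With 3 libraries a group, 29 of 100 simulated 2-fold changes were recovered in MI against Sham, and these comparisons were not simulated. In the main fit, intervals of the tested messages lay within -0.54 to 0.66 in Sham-E against Sham. They lay within -0.63 to 0.79 in MI-E against Sham-E. Those of mt-Rnr1 were -0.51 to 0.88 and -0.74 to 0.65 in the same order. All of these stopped short of a 2-fold change. For mt-Rnr2 the intervals, -0.81 to 1.10 and -1.48 to 0.44, reached it, so a difference of that size could be missed there.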

Other observations

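Mitochondrial genes also matched nuclear transcripts at lower identity. Gm13340, a pseudogene on chromosome 2, matched all 1545 bases of mt-Co1 at 97.61% identity and had 0 to 2 counts per library, 6 over all 12, where mt-Co1 had at least 155175 counts in every library. Gm11408, on chromosome 4, matched all 519 bases of mt-Nd6 at 93.64% identity, and Gm11410 matched mt-Cytb at 92.91%, and both had 0 counts in every library. A protein-coding gene, Cep295 on chromosome 9, matched mt-Tn over 71 bases at 91.55% and mt-Tl1 over 62 bases at 93.55%, and had 938 to 1738 counts per library. MI 2 had the highest CPM of the 12 libraries for all 9 tested mitochondrial genes, and MI-E 2 the lowest for 6 of them.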
